A study of Homo sapiens with 2 samples.

Results

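The 5'ETS (5' external transcribed spacer) is the first part of the 45S pre-rRNA, ahead of 18S, and it was read here bin by bin in 2 libraries of mitotic HCT116 cells. Its members were taken by position alone, as the 37 bins between positions 1 and 3656 of the GenBank human 45S rDNA reference sequence, out of 142 bins in all. HCT116 is a human colorectal carcinoma line. Cells were treated with Colcemid overnight, which arrests them at prometaphase, before lysis in NETN100 buffer, and total RNA was then extracted from the soluble fraction and from the pellet fraction, with 1 library for each. Both groups thus share the line and the drug treatment and differ in the fraction only, and the pellet holds whatever NETN100 did not dissolve, condensed chromosomes included. With 1 library for each fraction no difference has a replicate check, so no test was made. The 95% intervals cover counting error of independent reads only, and not the spread between preparations. Nor do they cover reads copied by PCR, which, with no molecular identifiers, do not count separate molecules.

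RNA polymerase I transcribes 18S, 5.8S and 28S as 1 precursor in the nucleolus, and the spacers around them are cut away in order. In human cells the 5'ETS is cut at A', the earliest site, then at A0 inside the spacer and at site 1, where 18S begins. The U3 snoRNA pairs with the 5'ETS and is needed for the early cuts, and the released pieces are degraded by exonucleases such as XRN2 and the exosome. A precursor that has lost its 5' end at A' still carries the rest of the spacer.

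The position of A' was taken near 414 and that of A0 near 1643. These sites divided the spacer into 5 segments, namely 4 bins before A' (1 to 400), the bin that holds A' (401 to 500), 11 bins between A' and A0 (501 to 1600), the bin that holds A0 (1601 to 1700) and 20 bins after A0 (1701 to 3656). Bins had a size of 100 bp except the last, from 3601 to 3656. Counts were divided by the total over all 142 bins, which was 6140899 reads (soluble) and 3564013 reads (pellet), to give CPM (counts per 1000000 reads). A count of 0 allows up to 3 counts, or 0.489 CPM in the soluble library against 0.842 CPM in the pellet library. Because CPM is relative to rDNA reads, more spacer and less mature rRNA cannot be told apart in a ratio of CPM.

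The sequences at the A' site and at the 18S start are shown here because the profile changes beside both. They were read from RNA45SN1, a copy of the 45S pre-rRNA gene on the plus strand of chromosome 21 in GRCh38 (RefSeq annotation), because the sequence on which reads were counted was not used here. They were placed by distance from the annotated transcript start or from the annotated start of 18S. The 5'ETS has 3654 nt in RNA45SN1, 3643 nt in RNA45SN2 and 3631 nt in RNA45SN3, against 3656 in the counted sequence, so positions far from both ends do not carry over, and whether the counted sequence has the same letters was not tested. Within these 3 copies the first 647 bases are identical, and so are the last 111 bases before 18S. All sequences run 5' to 3'. Capitals mark the 21 bases centred on base 414 in the A' stretch and the first 30 bases of 18S in the last stretch.
Bases 101 to 200, chr21:8433322-8433421, before A': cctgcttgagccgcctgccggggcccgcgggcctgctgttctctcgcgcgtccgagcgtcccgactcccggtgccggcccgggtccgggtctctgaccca
Bases 401 to 500, chr21:8433622-8433721, with A': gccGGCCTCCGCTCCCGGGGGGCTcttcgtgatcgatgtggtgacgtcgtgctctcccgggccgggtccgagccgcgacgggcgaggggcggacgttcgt
Bases 501 to 600, chr21:8433722-8433821, after A': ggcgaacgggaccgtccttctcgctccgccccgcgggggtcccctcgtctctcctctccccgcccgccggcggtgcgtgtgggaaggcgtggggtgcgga
Last 56 bases of the 5'ETS and first 30 of 18S, chr21:8436820-8436905: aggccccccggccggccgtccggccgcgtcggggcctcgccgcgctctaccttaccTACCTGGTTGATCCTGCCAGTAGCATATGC

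In both libraries reads were sparse up to and within the bin that holds A', apart from 1 bin, rose in the bin after it, and were most dense in the bin next after A0. The spacer held 5589 soluble and 100014 pellet reads. Before A', 81 soluble reads gave 3.30 CPM per 100 bp and 777 pellet reads gave 54.5 CPM per 100 bp. Between A' and A0, density was 25.9 CPM per 100 bp in the soluble library against 792.7 in the pellet library. After A0, it was 30.3 in the soluble library against 948.8 in the pellet library. Of these 3 segments the part before A' was the lowest in both libraries, while the order of the other 2 rested on 1 bin, as the within-library ratios show. The bin that holds A' was lower still, with 0 and 1.96 CPM per 100 bp.

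**Figure D1:**
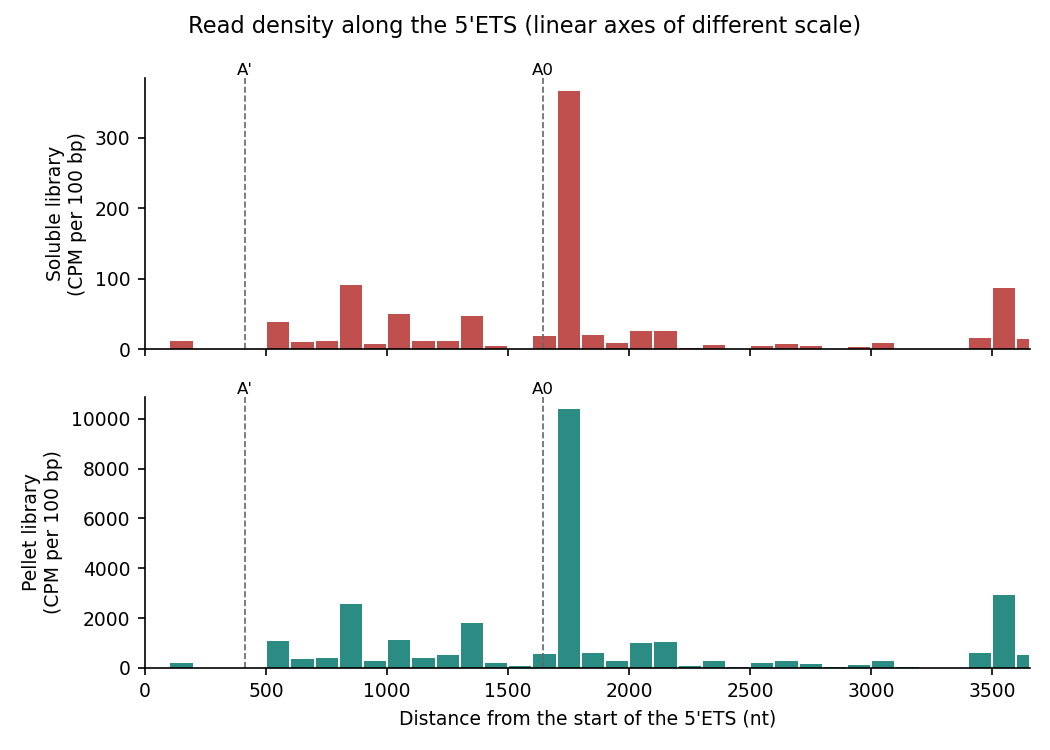
Read density in each of the 37 bins of the 5'ETS, in CPM per 100 bp, against distance from the start of the spacer in nt, for the soluble library (top) and the pellet library (bottom), each with its own linear axis. Dashed lines mark A' and A0, and the tallest bar in both libraries, at 366.1 and 10372 CPM, is the bin from 1701 to 1800.

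The part before A' was close to empty apart from 1 bin. No read was counted from 1 to 100 in either library. From 101 to 200, whose bases are printed above, 76 soluble reads (12.4 CPM) and 719 pellet reads (202 CPM) were counted. This bin held 93.8% of the soluble and 92.5% of the pellet reads before A'. From 201 to 300 there were 4 soluble and 15 pellet reads, and from 301 to 400 there was 1 soluble read against 43 pellet reads. Without the bin from 101 to 200, density before A' was 0.271 CPM per 100 bp in the soluble library, from 5 reads, and 5.42 in the pellet library, from 58 reads.

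The bin that holds A' was the emptiest bin of the spacer with any read. It had 7 pellet reads, or 1.96 CPM (Wilson 95% interval 0.951 to 4.05), and 0 soluble reads, which allows up to 0.489 CPM. Set against that limit of 3 counts the pellet CPM was 4.02 times as high, and the exact interval of the ratio reached down to 2.48. The next bin, from 501 to 600, had 237 soluble reads (38.6 CPM) and 3781 pellet reads (1061 CPM). Within the pellet library, density from 501 to 600 was 87.9 times that from 301 to 400 on the other side of the A' bin (95% interval 65.1 to 118.8). In the soluble library the same comparison rested on 1 read before the site and gave 237 times, with an exact 95% interval of 42.1 to 9400. Most of the A' bin lies after the site, and the rise in reads came with the next bin, so it is placed no better than to the edge of a bin. A large rise also lay where none of the named sites is, so it was not particular to A'. The bin from 3301 to 3400 had 1 soluble and 25 pellet reads, and that from 3401 to 3500 had 94 and 2075.

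Base composition of these stretches spanned 73% to 85% GC. In RNA45SN1, GC content was 73%, 77%, 85%, 76%, 75% and 77% in the successive stretches of 100 bases from the transcript start to base 600. The stretches from 101 to 200 and from 501 to 600 had the same GC content, with 719 and 3781 pellet reads in the bins of the same distance. The part of base composition in these counts was not tested.

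**Figure D2:**
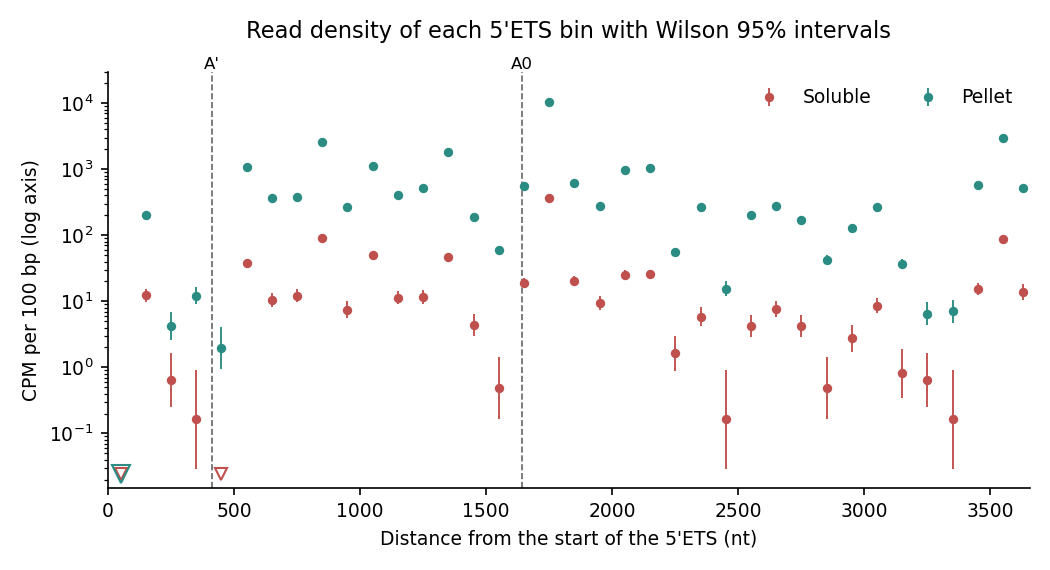
Density of each 5'ETS bin in CPM per 100 bp on a log axis, against distance from the start of the spacer in nt, with points for the soluble and pellet libraries, bars for Wilson 95% intervals of counting error, and open triangles at the foot for bins with 0 reads. The triangles lie in the bin from 1 to 100 for both libraries and in the A' bin for the soluble library, and pellet points lie above soluble points in each of the 36 bins with reads.

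Between A' and A0, the 11 bins rose and fell along the spacer in the same places in both libraries. The highest was from 801 to 900, with 562 soluble reads (91.5 CPM) and 9141 pellet reads (2565 CPM). The next highest were from 1301 to 1400, with 289 soluble and 6452 pellet reads, and from 1001 to 1100, with 304 soluble and 3917 pellet reads. These last 2 bins stood in opposite order in the libraries. The median bin of this segment had 11.6 CPM per 100 bp in the soluble library against 402.9 in the pellet library. The lowest bin was the last one before the A0 bin, from 1501 to 1600, with 3 soluble reads (0.489 CPM) and 212 pellet reads (59.5 CPM).

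At A0, the profile went from its lowest bin of the segment to its highest bin of the spacer within 200 bp. The bin that holds A0, from 1601 to 1700, had 117 soluble reads (19.1 CPM) and 2011 pellet reads (564.3 CPM). The bin after it, from 1701 to 1800, had 2248 soluble reads (366.1 CPM) and 36965 pellet reads (10372 CPM). It exceeded the A0 bin 19.2 times in the soluble library (95% interval 15.95 to 23.1) and 18.4 times in the pellet library (17.6 to 19.2). It exceeded the next bin, from 1801 to 1900, 18.1 times in the soluble library (15.1 to 21.7) and 16.96 times in the pellet library (16.2 to 17.7). The peak was thus confined to 1 bin on both sides. Between 1501 to 1600 and 1701 to 1800 the density rose 174.4 times in the pellet library (152.3 to 199.6) and 749.3 times in the soluble library, where 3 reads on the near side gave an exact interval of 256.1 to 3636. The peak bin starts after the A0 bin, so this rise too is placed only to the edge of a bin. A large step also lay inside 28S, so it was not particular to A0. There the bin from 12535 to 12634 had 2240 soluble and 2153 pellet reads, and the next had 785104 and 549503.

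The bin from 1701 to 1800 held 40.2% of all 5'ETS reads in the soluble library against 37.0% in the pellet library. It held 61.7% of the soluble and 55.9% of the pellet reads after A0. A single dominant bin was also seen in the neighbouring regions, where the top bin held 35.4% of soluble and 29.0% of pellet reads in 18S and 67.3% of soluble and 53.6% of pellet reads in ITS1.

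After the peak, density fell toward the middle of the segment and rose again at its end (blocks chosen after their values were seen). The 4 bins from 1801 to 2200 had 20.1 CPM per 100 bp in the soluble library against 730.9 in the pellet library. The 13 bins from 2201 to 3500 had 4.05 in the soluble library against 158.1 in the pellet library. They were not evenly sparse, since the last of them, from 3401 to 3500, had 94 soluble reads (15.3 CPM) and 2075 pellet reads (582 CPM). These 13 bins made up 35.6% of the length of the spacer and held 5.78% of its soluble reads (Wilson 95% interval 5.20% to 6.42%) and 7.32% of its pellet reads (7.17% to 7.49%). In this stretch the bins from 3201 to 3300 and from 3301 to 3400 had the fewest pellet reads, 23 and 25, with 4 and 1 soluble reads. The bin from 2401 to 2500 was also low, with 1 soluble read and 55 pellet reads, as was that from 2801 to 2900, with 3 and 151.

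The last full bin before 18S was among the 5 most dense of the spacer, and the short bin after it was not. From 3501 to 3600, 530 soluble reads (86.3 CPM) and 10402 pellet reads (2919 CPM) were counted. This bin was 5.64 times as dense as the bin from 3401 to 3500 in the soluble library (95% interval 4.53 to 7.02) and 5.01 times in the pellet library (4.78 to 5.25). The short last bin, from 3601 to 3656, had 48 soluble and 1030 pellet reads, or 13.96 and 516.1 CPM per 100 bp. Density was therefore lower next to site 1 than 100 bp before it, by 6.18 times in the soluble library (4.60 to 8.31) and by 5.66 times in the pellet library (5.30 to 6.03). How reads over a bin edge were counted is not given in the sources used here, and its part in the short bin was not tested.

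Across site 1, where the stretch of sequence above turns to capitals, the libraries differed in where density rose most. That bin, from 3657 to 3756, had 718 soluble reads (116.9 CPM) and 11666 pellet reads (3273 CPM). The last 156 bp of the 5'ETS had 0.516 times its density in the soluble library (95% interval 0.463 to 0.576) and 0.628 times in the pellet library (0.612 to 0.645). The first bin of 18S was 8.38 times as dense as the short last bin of the spacer in the soluble library (6.25 to 11.2) and 6.34 times in the pellet library (5.95 to 6.76). The second bin of 18S exceeded the first 57.6 times in the soluble library (53.5 to 62.0), and 1.80 times in the pellet library (1.76 to 1.84). Against the first 2 bins of 18S as 1 block, the last 156 bp of the spacer had 0.0176 times the density in the soluble library against 0.449 times in the pellet library. The first bin was low for 18S, whose whole length had 20646 soluble and 14658 pellet CPM per 100 bp. A like step lay at the start of 28S, so it was not particular to site 1. The first bin of 28S had 774 soluble and 10326 pellet reads, and the second had 111864 and 54249.

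Set against the part after A0, density before A' was 0.109 times as high in the soluble library (95% interval 0.0872 to 0.136) and 0.0574 times in the pellet library (0.0535 to 0.0617). Without the bin with the highest pellet CPM of each segment, these values were 0.0222 and 0.0123. Density between A' and A0 was 0.853 times that after A0 in the soluble library (0.806 to 0.903) and 0.835 times in the pellet library (0.824 to 0.847). The order of these 2 segments rested on the peak bin from 1701 to 1800. When it alone was left out, density after A0 was 0.473 times that between A' and A0 in the soluble library (0.441 to 0.507) and 0.556 times in the pellet library (0.548 to 0.565). Without the bin with the highest pellet CPM of each segment the part between A' and A0 was the denser, by 1.58 times in the soluble library against 1.40 times in the pellet library, and by the median of the bins it was 1.71 times and 1.52 times as dense.

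**Figure D3:**
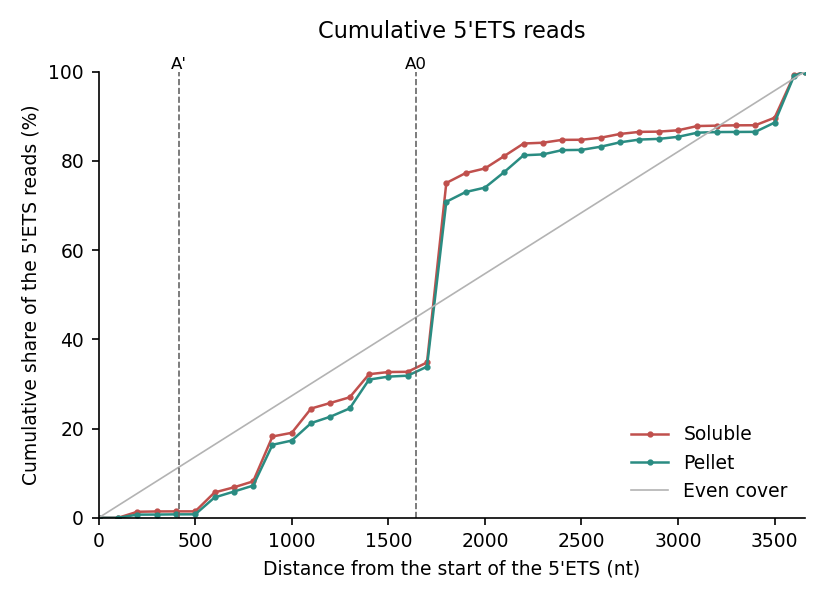
Cumulative share of the 5'ETS reads in percent, from the first to the last bin, against distance from the start of the spacer in nt, for the soluble and the pellet library, with a grey line for even cover. At position 500 the curves stand at 1.45% and 0.784%, and over the bin from 1701 to 1800 they climb from 34.8% to 75.0% (soluble) and from 33.9% to 70.8% (pellet).

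With every bin counted, the shares of the 5'ETS reads in the segments after A' differed little between the 2 libraries. Between A' and A0 lay 31.3% of the soluble reads (Wilson 95% interval 30.1% to 32.5%) and 31.1% of the pellet reads (30.8% to 31.4%). After A0 lay 65.2% (63.9% to 66.4%) and 66.1% (65.8% to 66.4%). The intervals of the libraries overlapped in both segments. Both shares turned on the bin from 1701 to 1800, without which 52.3% of the soluble and 49.3% of the pellet reads lay between A' and A0, and 41.8% and 46.3% after A0. Before A' lay 1.45% of the soluble reads (1.17% to 1.80%) and 0.777% of the pellet reads (0.724% to 0.833%), over 10.9% of the length of the spacer. Here the intervals did not overlap, and the soluble share was the higher, with 93.8% of these soluble reads in the bin from 101 to 200. The A' bin held 0% and 0.00700% of the reads, and the A0 bin held 2.09% and 2.01%.

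The profiles were alike bin by bin. The 5 bins with the highest CPM were the same in both libraries, namely those starting at 801, 1001, 1301, 1701 and 3501. They held 70.4% of the soluble and 66.9% of the pellet reads of the spacer. Over the 37 bins, Pearson's r of log2(reads + 1) between the libraries was 0.95 and Spearman's rho of the reads was 0.97. The bins share their reference, their sequence and the library preparation, so this is a description and no test.

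Reads in the 5'ETS were more frequent in the pellet fraction at each position with reads. The log2 pellet to soluble ratio, with a pseudocount of 1 CPM, was above 1 in 36 of the 36 bins with any read. Over the whole 45S sequence this held for 55.8% of the 138 bins with any read, and outside the 5'ETS for 41 of 102 bins. Every bin with reads in ITS1, ITS2, 5.8S and the 3' external spacer also lay above 1. Their lowest log2 ratios were 3.57, 2.31, 2.60 and 1.09. The bins with reads at or below 1 all lay in 18S and 28S, so the trait was not particular to the 5'ETS. The log2 ratio ranged from 1.57 in the A' bin to 5.38 in the bin from 1201 to 1300, with a median of 4.86, against 2.35 over all bins with any read, 18S and 28S included. The pseudocount set the lowest value, since the A' bin had 0 soluble reads. It also lowered the values of bins with few soluble reads, such as that from 1501 to 1600, at 5.34 for a ratio of 121.8.

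The size of the pellet to soluble ratio was lower before A' than after it. Before A' the ratio of CPM was 16.5 (95% interval 13.1 to 20.8). It was 30.6 between A' and A0 (29.2 to 32.1), 29.6 in the A0 bin (24.6 to 35.7) and 31.3 after A0 (30.3 to 32.3). Relative to the part between A' and A0, the ratio before A' was 0.540 times as high (95% interval 0.427 to 0.682), and relative to the part after A0 it was 0.528 times as high (0.419 to 0.666). This rested on the bin from 101 to 200, with a ratio of 16.3 (12.9 to 20.6). Without that bin the ratio before A' was 19.99, with an interval of 8.02 to 49.8 that held the values of the segments after A'.

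Between the segments on both sides of A0 the ratio was close to level. The ratio between A' and A0 was 0.979 times that after A0, with an interval of 0.923 to 1.04 that holds 1. When the bin from 1701 to 1800 was left out, the ratio after A0 was 1.18 times that between A' and A0 (1.09 to 1.26). The median ratio was 35.4 over the 10 bins between A' and A0 that had over 3 reads in both libraries, and 36.97 over the 17 such bins after A0.

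**Figure D4:**
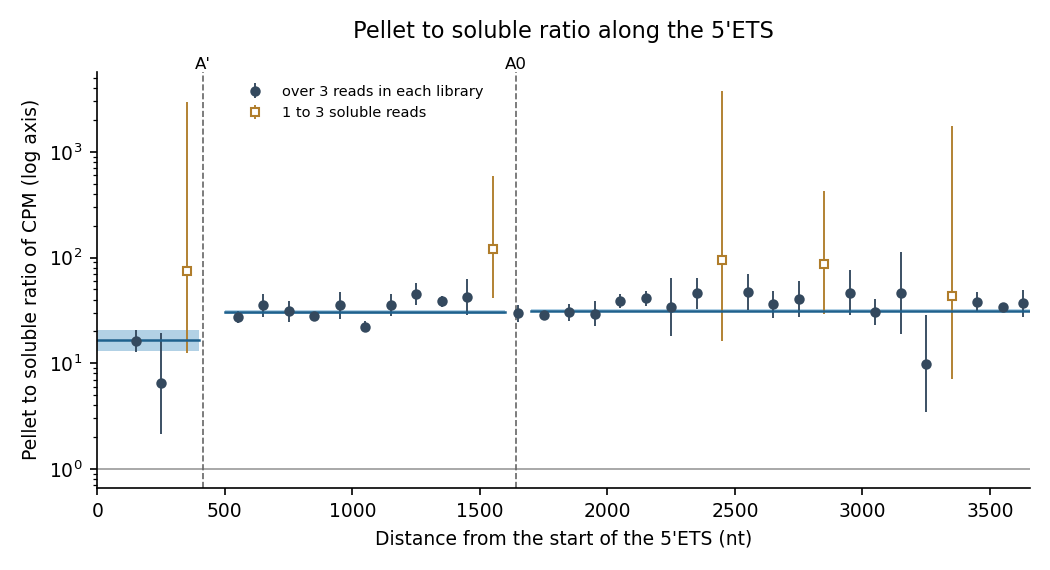
Pellet to soluble ratio of CPM in each 5'ETS bin on a log axis, against distance from the start of the spacer in nt, with 95% counting intervals. Filled points mark over 3 reads in both libraries, open squares have 1 to 3 soluble reads with exact intervals, and blue lines with bands give the ratio of the segments before A' (16.5), between A' and A0 (30.6) and after A0 (31.3).

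In some single bins the interval of the ratio left out the ratio of the whole 5'ETS. These intervals take each read as independent and do not cover PCR copies. No allowance was made for the number of bins read. Whether single bins depart by more than counting error with PCR copies included was not tested. In the 30 bins where both libraries had over 3 reads, the ratio ranged from 6.46 to 47.3. The interval lay below the ratio of the whole 5'ETS, which was 30.8, in 6 bins, above it in 8 and around it in 16. The 3 lowest ratios were 6.46 in the bin starting at 201 (2.14 to 19.5), 9.91 in that starting at 3201 (3.43 to 28.6) and 16.3 in that starting at 101. These bins had 4, 4 and 76 soluble reads. The peak bin from 1701 to 1800, at 28.3 (27.2 to 29.6), the bin starting at 801, at 28.03 (25.7 to 30.5), and the bin starting at 1001, at 22.2 (19.8 to 24.9), also lay below it. These are 3 of the 5 bins with the most reads. The other 2 lay above it, with 38.5 in the bin starting at 1301 (34.2 to 43.3) and 33.8 in that starting at 3501 (30.99 to 36.9).

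The 3 highest ratios among these bins were 47.3 in the bin starting at 2501 (31.9 to 69.9), 46.5 in that starting at 2901 (28.7 to 75.5) and 45.8 in that starting at 3101 (18.8 to 111.9). All of them lay in the sparse stretch after A0 and had wide intervals. Over the 13 bins of that stretch, from 2201 to 3500, the ratio was 39.1 (34.96 to 43.7). In the bin just before the A0 bin, from 1501 to 1600, 3 soluble reads against 212 pellet reads gave a ratio of 121.8 with an exact interval of 41.1 to 595.1.

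Next to 18S the ratio in the first bin of the mature sequence was near that of the spacer but somewhat lower. Its interval lay below the 30.8 of the whole 5'ETS. The ratio was 33.8 in the last full bin, 36.97 in the short last bin (27.7 to 49.4) and 27.996 in the first bin of 18S (25.96 to 30.2). In the second bin of 18S it was 0.874 (0.859 to 0.888). The ratio of the last 156 bp of the spacer was 1.22 times that of the first bin of 18S (95% interval 1.09 to 1.36).

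Compared with the internal spacers, the ratio of the whole 5'ETS was 1.06 times that of ITS1 (95% interval 1.01 to 1.12) and 1.31 times that of ITS2 (1.26 to 1.36). The ITS1 value leaned on its first bin, with a ratio of 23.1 and 67.3% of its soluble and 53.6% of its pellet reads. All other ITS1 bins except that from 5728 to 5827 (16.3) had higher ratios, up to 51.3. Of these other bins, only that one and the one from 6128 to 6227 (27.6), with 15 and 5 soluble reads, lay below the 30.8 of the whole 5'ETS. The order of the 5'ETS and ITS1 thus rested on that first bin of ITS1, and the summed ratio without it was not computed. The part before A', at 16.5, lay below the ratios of both, which were 29.0 for ITS1 (27.8 to 30.3) and 23.6 for ITS2 (23.0 to 24.3). The intervals of these comparisons come from counting error in 2 libraries and say nothing of the spread between preparations.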

How the data were processed

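Per the file headers and the study's methods, the authors trimmed reads with Trim Galore (0.6.6), used STAR (2.7.8a) for alignment to GenBank's 45S rDNA of human and featureCounts (2.0.1) for counting per bin. What was deposited are raw read counts, not normalized, from 1 library for each fraction. How reads over 2 bins, several alignments or the strand were treated is not given in the sources used here.

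Each count was scaled to the reads of its library in the 142 bins (CPM) and, per segment, to length. Shares have Wilson 95% intervals. Ratios have 95% intervals on the log scale, or exact conditional binomial intervals where a count is at most 3. Intervals were tested on simulated counts of independent reads, which is what the intervals assume. That simulation does not cover PCR copies or the spread between preparations. Segments were set by A' and A0. The named bins are those at and beside these sites and site 1, the 5 highest in CPM of each library, those with no read, and the 3 highest and 3 lowest in ratio among bins with over 3 reads in each library. The members, sites, lists and alternatives were chosen with earlier results of these data known. Python (3.11.15), NumPy (2.4.6), SciPy (1.17.1) and matplotlib (3.10.9) were used.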

Additional observations from a re-analysis of the deposited data

How the results depend on the processing

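Of 48 alternative values, 17 stayed within the main 95% interval (counts of bins, within 1.5 times), 27 moved outside it and 4 reversed, and the cause was not tested. The 4 that reversed are the density between A' and A0 relative to that after A0, which was 1.58 (soluble) and 1.40 (pellet) without the bin with the highest pellet CPM of each segment, and 1.71 and 1.52 by the median of the bins. With the bins that hold A' and A0 added to the middle segment it was 0.770 and 0.753. Density before A' relative to after A0 was 0.0222 and 0.0123 without the highest bins, and 0.0870 and 0.0464 with the A' bin added. Relative to the 18S plus 28S reads, the pellet to soluble ratio was 32.6 between A' and A0, 33.2 after A0 and 32.8 in the whole 5'ETS. With the library total taken without its 5 largest bins it was 29.9 after A0 and 29.4 in the whole 5'ETS. Without the bin with the highest pellet CPM it was 36.04 after A0 and 32.5 in the whole, and by the median of the bins it was 34.8 between A' and A0 and 39.3 after A0. The last 156 bp against the first bin of 18S was 0.738 and 0.892 for the bin from 3501 to 3600 alone, and 0.0176 and 0.449 against the first 2 bins of 18S. Without the bin from 1701 to 1800, the soluble and pellet shares of the 5'ETS reads were 2.42% and 1.23% before A', 52.3% and 49.3% between A' and A0, 3.502% and 3.19% in the A0 bin, and 41.8% and 46.3% after A0. Bins higher in the pellet were 36 of 36 with a pseudocount of 0.1 CPM and relative to the 18S plus 28S reads. They were 32 of 36 with a pseudocount of 10 CPM, and 32 of the 32 bins with at least 10 CPM in at least 1 library. The share over all bins was not computed under these alternatives. Depth limits the part before A' and the bins with 0 to 3 soluble reads. No paired analysis was possible because there is no second library of either fraction.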
